A study of Homo sapiens with 21 samples.

Results

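10 genes were followed across 21 RNA sequencing libraries of human leukaemia cell lines, out of 28008 genes in the deposited count tables. HACD4, KLHL9, MTAP, CDKN2A and CDKN2B form a block on chromosome band 9p21, FOCAD and CAAP1 flank it, and MAT2A, PRMT5 and WDR77 are enzymes or cofactors tied to MTAP. The block and its flanks were chosen by their counts in these libraries, which earlier results showed to be absent or reduced in the libraries labelled resistant and in K562, so their values in those comparisons are given as a description, without a test. MAT2A, PRMT5 and WDR77 were chosen for their known link to MTAP loss and were tested in every comparison. All 10 symbols were found in both tables.

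The series compared OCI-AML3, a myeloid leukaemia line, with cells of that line labelled as resistant to StAMP, an agent that the labels do not spell out in a series whose title concerns stapled peptides. Groups held 3 libraries each. Batch 1 contained OCI-AML3 parental cells (genotype WT, no treatment), OCI-AML3 vehicle cells (WT, DMSO), resistant biological replicate 1 (genotype Res, StAMP; "resistant 1" here) and untreated K562 parental cells (WT, erythroleukemia). Batch 2 contained vehicle, resistant 1 again and a second resistant biological replicate ("resistant 2"), labelled in the same way. The sources used here do not give growth, selection, dose or time. The 3 libraries of a resistant group are samples of 1 biological replicate, and no label speaks of separate cultures. The p-values therefore reflect only how much these libraries spread, which may be technical.

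The libraries labelled resistant went against their cell line label. Across 10767 genes, log2 values of CPM + 1 (CPM is the count relative to the library's total after TMM scaling) of resistant 1 in batch 1 correlated with K562 at Pearson r of 0.978 to 0.980 and with vehicle at 0.511 to 0.514. In batch 2, resistant 1 correlated with the K562 libraries of batch 1 at 0.910 to 0.940, and resistant 2 at 0.900 to 0.930. Both correlated with their own vehicle at 0.547 to 0.570 and 0.548 to 0.566. The summed level of 18 erythroid markers was 185 to 190 CPM in vehicle of batch 1, 6438 to 6637 in resistant 1 of batch 1, 6507 to 6808 in K562, 2912 to 3471 in batch 2 of resistant 1, with 1848 to 2958 in resistant 2. The 17 myeloid markers summed to 2954 to 3040 CPM in vehicle of batch 1 and 134 to 136 in resistant 1 of that batch, and to 239 to 279 and 196 to 218 in resistant 1 and 2 of batch 2, with 2 to 4 of them at 0 counts. In K562 they summed to 75.5 to 80.3 CPM, below every resistant library. All 9 resistant libraries shared this profile, so no resistant library remains for a repeat without them. The comparison of resistant 1 with K562 is given beside the others, and groups are called by their labels below. Total counts per library were 14.1 to 21.1 M (mega counts) in batch 1 and 30.7 to 51.3 M in batch 2.

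MTAP encodes methylthioadenosine phosphorylase, which clears methylthioadenosine (MTA), the by-product of polyamine synthesis, and returns its parts to methionine and adenine. MTA that is not cleared competes with S-adenosylmethionine (SAM) at PRMT5, the main enzyme that places symmetric dimethyl marks on arginine, and cells without MTAP are known to depend more on PRMT5, on its cofactor WDR77 and on MAT2A, which makes SAM. MTAP lies beside CDKN2A and CDKN2B, tumour suppressor genes whose products p16INK4a, p14ARF and p15INK4b hold back cell division, the INK4 pair by binding CDK4 and CDK6, and the genes are often lost together in cancer. K562 is known as a line without CDKN2A. DNA was not measured in these libraries.

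The block genes lie on chromosome 9 of hg38 in the GENCODE annotation in the order HACD4 (positions 20999509 to 21031640), KLHL9 (21329665 to 21335404), MTAP (21802636 to 21937651), CDKN2A (21967752 to 21995301) and CDKN2B (22002903 to 22009305). MTAP is on the plus strand and the other 4 are on the minus strand. The block spans 1009.8 kb, with 30.1 kb between MTAP and CDKN2A and 7.6 kb between CDKN2A and CDKN2B. FOCAD (20658309 to 20995955, plus strand) ends 3.55 kb before HACD4, and CAAP1 (26840685 to 26892803, minus strand) begins 4.831 Mb after CDKN2B. The enzymes lie elsewhere, MAT2A on chromosome 2 (85539168 to 85545281, plus strand), PRMT5 on chromosome 14 (22920525 to 22929408, minus strand) and WDR77 on chromosome 1 (111439890 to 111449256, minus strand).

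The 250 bases before the starts of the 3 neighbours MTAP, CDKN2A and CDKN2B are shown because these are the adjacent block genes with 0 counts in all resistant and K562 libraries. CDKN2A has 2 RefSeq starts, the first for the p14ARF transcript and the second, inside the annotated CDKN2A gene, for p16INK4a, and a count per gene does not separate them. Sequences are from RefSeq (GRCh38.p14), 5′ to 3′ on the gene's strand. Capitals mark the letters GGGCGG (a GC box), CCAAT and TATAAA on either strand, which do not overlap one another here.

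MTAP, chr9:21802386-21802635, plus strand: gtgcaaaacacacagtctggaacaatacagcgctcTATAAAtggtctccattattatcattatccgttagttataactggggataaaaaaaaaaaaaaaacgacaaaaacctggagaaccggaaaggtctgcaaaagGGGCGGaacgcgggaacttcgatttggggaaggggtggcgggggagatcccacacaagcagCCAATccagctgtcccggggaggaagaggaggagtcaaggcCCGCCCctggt
CDKN2A first start, chr9:21995325-21995574, minus strand: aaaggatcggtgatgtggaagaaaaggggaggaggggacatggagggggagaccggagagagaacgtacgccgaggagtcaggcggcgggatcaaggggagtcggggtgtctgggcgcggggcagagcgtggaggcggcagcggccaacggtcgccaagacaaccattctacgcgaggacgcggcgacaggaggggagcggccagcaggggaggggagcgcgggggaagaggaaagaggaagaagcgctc
CDKN2A second start, chr9:21974858-21975107, minus strand: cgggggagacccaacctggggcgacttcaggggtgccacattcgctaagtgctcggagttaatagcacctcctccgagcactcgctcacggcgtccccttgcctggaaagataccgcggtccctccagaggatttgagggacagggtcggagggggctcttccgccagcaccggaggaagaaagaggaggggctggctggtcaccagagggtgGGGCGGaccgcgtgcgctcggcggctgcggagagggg
CDKN2B, chr9:22009306-22009555, minus strand: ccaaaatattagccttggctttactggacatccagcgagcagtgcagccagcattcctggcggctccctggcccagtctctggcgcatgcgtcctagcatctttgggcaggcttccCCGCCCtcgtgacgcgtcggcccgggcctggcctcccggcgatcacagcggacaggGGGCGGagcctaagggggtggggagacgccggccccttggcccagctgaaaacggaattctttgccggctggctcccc

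The MTAP stretch held 2 GC boxes, 1 CCAAT and 1 TATAAA. The second CDKN2A stretch held 1 GC box, the CDKN2B stretch 2, and the first CDKN2A stretch none of the 3 motifs. Of 35116 RefSeq promoters of the same length, 42.6% held GGGCGG, 32.0% CCAAT and 10.7% TATAAA. CpG pairs numbered 11 before MTAP, 24 and 20 before the CDKN2A starts and 18 before CDKN2B, against a median of 11 over all promoters. The 4 stretches differ in their number of CpG pairs and in which of these motifs they hold.

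MTAP was the most abundant block gene in OCI-AML3, by counts and per kilobase. Its counts were 2106, 2079 and 1600 in parental, 2599, 2841 and 2035 in vehicle of batch 1, and 9296, 7830 and 6754 in vehicle of batch 2. It had 0 counts in each of the 9 resistant libraries and in each of the 3 K562 libraries. The groups therefore did not overlap, and the level over 3 libraries was at least 2356.4-fold lower in resistant 1 than in vehicle of batch 1, at least 8195.2-fold lower in resistant 1 and 9429.7-fold lower in resistant 2 than in vehicle of batch 2, and at least 1877.4-fold lower in K562 than in parental cells. These bounds set the group at 0 to 3 counts over its 3 libraries and, like every interval on counts here, cover counting error only.

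HACD4 encodes a dehydratase-like protein of the HACD family, which acts in very long chain fatty acid elongation. Its counts were 775, 846 and 669 in parental, 652, 773 and 472 in vehicle of batch 1, and 1197, 1367 and 1007 in vehicle of batch 2. All resistant and K562 libraries had 0, at least 593.0-fold lower in resistant 1 of batch 1, 1238.0-fold in resistant 1 and 1424.5-fold in resistant 2 of batch 2, and 745.2-fold in K562. KLHL9 encodes a substrate adaptor of CUL3 ubiquitin ligases that acts in mitosis. It had 617, 638 and 546 counts in parental, 720, 769 and 534 in vehicle of batch 1, and 2935, 2248 and 1980 in vehicle of batch 2. It had 0 in every resistant library, at least 636.6-fold lower in batch 1 and at least 2446.0-fold and 2814.4-fold lower in resistant 1 and 2 of batch 2. One K562 library held 1 KLHL9 read and the other 2 held none. This was the only read of the block in the 12 resistant and K562 libraries, and the ratio of parental to K562 was 1757.4 with an exact 95% counting interval of 315.0 to 69453.3.

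CDKN2A and CDKN2B were expressed at low levels in OCI-AML3. CDKN2A had 25, 22 and 23 counts in parental, 86, 83 and 84 in vehicle of batch 1 and 116, 110 and 132 in vehicle of batch 2. CDKN2B had 32, 27 and 26 counts in parental, 35, 26 and 29 in vehicle of batch 1, and 79, 47 and 17 in vehicle of batch 2. Both had 0 counts in all resistant and K562 libraries. For CDKN2A this was at least 81.3-fold lower in resistant 1 of batch 1, 126.1-fold and 145.1-fold lower in resistant 1 and 2 of batch 2, and 22.8-fold lower in K562. The bounds for CDKN2B were 29.0-fold, 46.2-fold, 53.2-fold and 27.6-fold in the same order, smaller than those of MTAP because the control counts were lower. The antisense gene CDKN2B-AS1 overlaps both on the opposite strand with 34 counts over the 21 libraries, none of them in a resistant or K562 library. The sources used here do not say whether the counting used strand, so a small part of the CDKN2A and CDKN2B counts could belong to it.

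**Figure D1:**
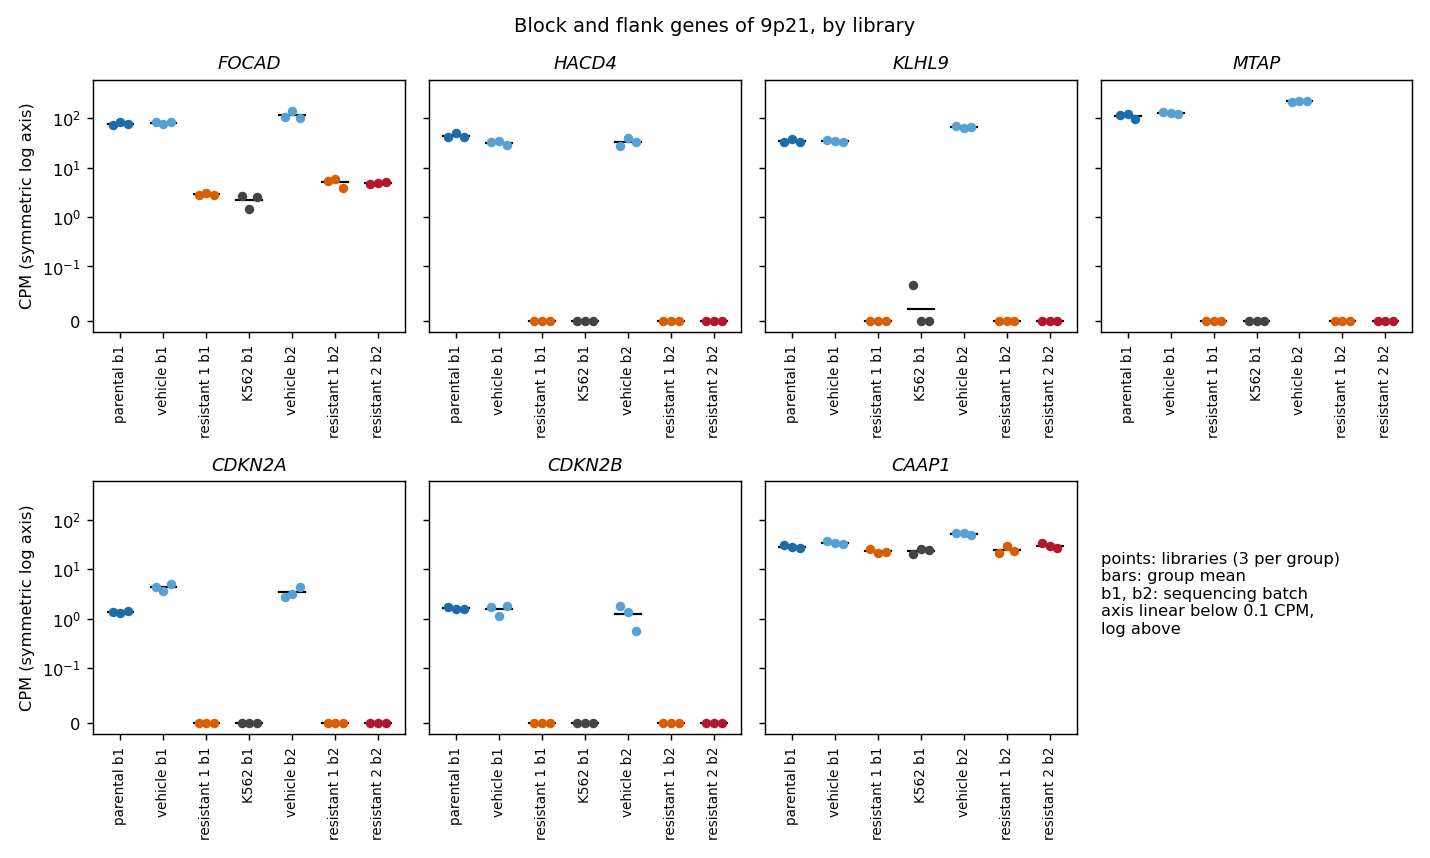
Level of the 7 genes on 9p in each library, in CPM on an axis that is linear below 0.1 and logarithmic above, by group and sequencing batch (b1, b2); points are libraries and bars are group means. HACD4, MTAP, CDKN2A and CDKN2B lie at 0 in all resistant and K562 libraries, 1 K562 library holds a single KLHL9 count, FOCAD stays between 1.47 and 5.88 CPM there, and CAAP1 between 19.96 and 33.8 CPM.

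Summed over the 5 genes, the block had 10031 counts in parental, 11738 in vehicle of batch 1 and 35115 in vehicle of batch 2, against 0 in each of the 3 resistant groups and 1 in K562. The mean summed level was 193 ± 18.3 CPM (SD, n = 3) in parental, 198 ± 6.35 in vehicle of batch 1 and 326 ± 7.70 in vehicle of batch 2. MTAP made up 57.6%, 63.8% and 68.0% of the block's summed CPM in these groups, and HACD4 22.9%, 16.04% and 10.3%. Per kilobase of merged exons the order in parental cells was MTAP at 7.67, KLHL9 at 6.06, HACD4 at 4.83, CDKN2B at 0.41 and CDKN2A at 0.35 CPM per kb. In vehicle of batch 1 CDKN2A, at 1.12 CPM per kb, stood above CDKN2B, at 0.39.

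The comparison of vehicle with parental OCI-AML3 in batch 1 was not used to choose the block and could be tested. Of 14505 genes tested, 37.0% were called at an adjusted p under 0.05, 18.7% higher and 18.3% lower in vehicle. Among the 5 block genes, 2 were called higher and 1 lower. CDKN2A was higher in vehicle by 1.65 on the log2 scale (SE 0.21, adjusted p = 7.7e-07), at 4.31, 3.65 and 5.13 CPM against 1.35, 1.29 and 1.41 in parental. Every vehicle library was above every parental library. HACD4 was lower by 0.49 on the log2 scale (log2 change -0.49, SE 0.081, adjusted p = 3.8e-05), at 32.7, 33.98 and 28.8 CPM against 42.0, 49.7 and 41.04. MTAP was higher by 0.17 (SE 0.063, adjusted p = 0.0408), at 130, 125 and 124 CPM against 114, 122 and 98.2, with no overlap. The MTAP call was lost on leaving out parental library 1 or 3 or any 1 vehicle library, where the change ran from 0.09 to 0.19 and the adjusted p from 0.0629 to 0.212. KLHL9 (log2 change -0.04, 95% interval -0.19 to 0.10) and CDKN2B (-0.12, -0.60 to 0.37) were not called, and their libraries overlapped. Thus CDKN2A and HACD4 differed in opposite directions between these WT groups with counts of the block, while the MTAP call rested on single libraries.

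FOCAD, a large gene whose product is known to keep the SKI RNA decay complex stable, was low but present in the resistant and K562 libraries. It had 59, 59 and 43 counts in resistant 1 of batch 1, against 1657, 1736 and 1343 in vehicle, a mean of 3.58% ± 0.217 (SD, n = 3) of the vehicle level. In batch 2 resistant 1 had 251, 214 and 109 counts and resistant 2 had 208, 200 and 218, against 4585, 4790 and 3096 in vehicle, or 4.37% ± 0.897 and 4.25% ± 0.125. K562 had 40, 24 and 49 counts against 1364, 1396 and 1226 in parental cells, or 2.89% ± 0.855. The resistant and K562 libraries lay far below all OCI-AML3 controls, and the 4 percentages lay close together. FOCAD did not pass the test within the low groups or within the controls. The flanks were chosen as low in the resistant and K562 libraries, so likeness among those groups follows in part from the choice. Resistant 1 of batch 1 was 0.39 above K562 on the log2 scale (95% interval -0.02 to 0.81, adjusted p = 0.112), at means of 2.88 and 2.23 CPM without overlap. The change was -0.04 for resistant 2 against resistant 1 (-0.36 to 0.28, adjusted p = 0.892). For vehicle against parental it was 0.05 (-0.07 to 0.16, adjusted p = 0.588). A gene count does not show which part of FOCAD the reads came from.

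CAAP1, which encodes an inhibitor of apoptosis that acts on caspase activity, is the first gene beyond CDKN2B with 10 or more counts over the 21 libraries. It had counts in every library. In batch 1 it stood at 25.3, 21.5 and 22.7 CPM in resistant 1, 19.96, 26.3 and 25.01 in K562, 37.02, 34.6 and 32.4 in vehicle and 30.9, 28.5 and 27.1 in parental libraries. In batch 2 it stood at 21.01, 29.3 and 23.2 CPM in resistant 1 and 33.8, 30.3 and 26.7 in resistant 2, against 53.2, 55.1 and 50.2 in vehicle. As a percentage of their controls the groups held 66.8% ± 5.72 (resistant 1, batch 1), 46.4% ± 8.15 (resistant 1, batch 2), 57.2% ± 6.75 (resistant 2) and 82.5% ± 11.6 (K562), each below its controls without overlap. CAAP1 did not pass the test between resistant 1 and K562 (-0.01, 95% interval -0.18 to 0.16, adjusted p = 0.922) or between resistant 2 and resistant 1 (0.31, 0.04 to 0.59, adjusted p = 0.117), although the latter was called at 0.46 (adjusted p = 0.0251) without resistant 1 library 2. It was higher in vehicle than in parental by 0.25 (SE 0.076, adjusted p = 0.0104), a call lost without vehicle library 1 (0.21, adjusted p = 0.0581).

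The counts were then read gene by gene along the chromosome from MLLT3 to MOB3B, a window with 48 genes in the tables. Between FOCAD and CAAP1, 5.845 Mb apart, lie 31 genes, of which 9 had a count anywhere and 6 had 10 or more over the 21 libraries. The 26 genes there that are not in the block had 18 counts in parental, 6 in vehicle of batch 1 and 22 in vehicle of batch 2, and 0 in the 9 resistant and the 3 K562 libraries. Among them are 16 interferon genes, of which only IFNB1 was counted, with 5 reads in parental cells. The silent interval is thus carried by few expressed genes, and most genes in it could not have shown a loss.

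**Figure D2:**
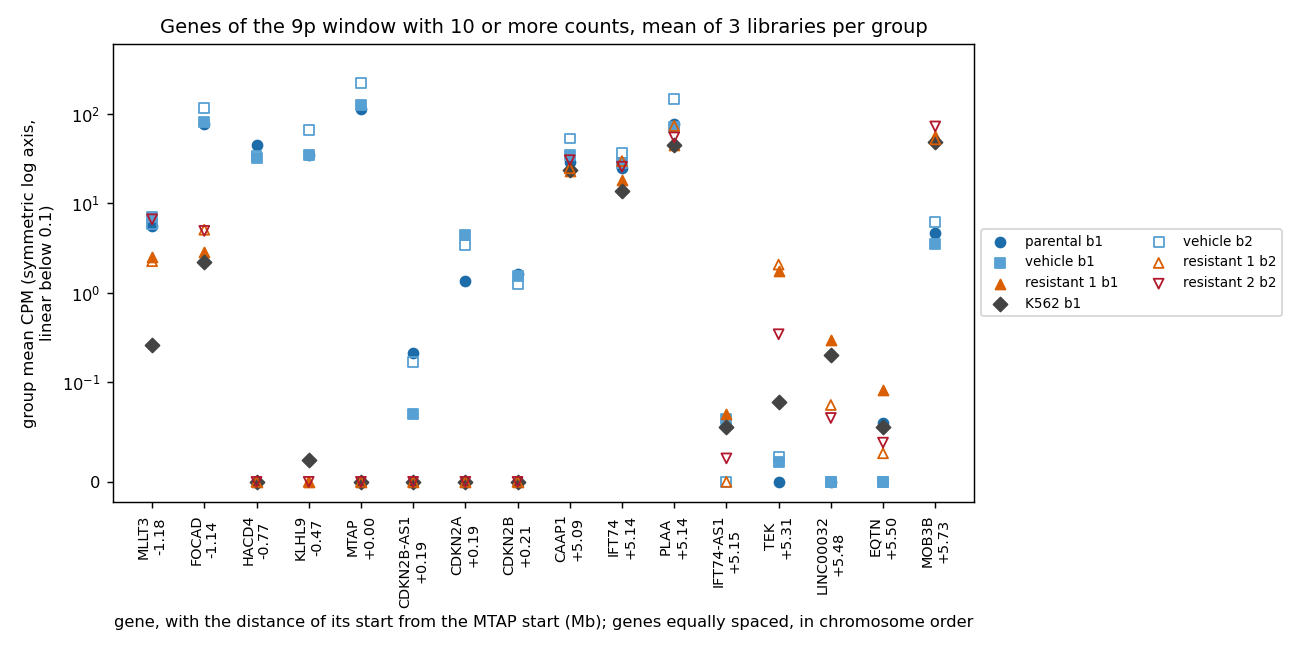
Mean level of 3 libraries per group, in CPM on an axis linear below 0.1 and logarithmic above, for the genes of the window with 10 or more counts. Genes are equally spaced in order of their starts. The distance printed for each gene is that of its start, taken on its own strand, from the MTAP start in Mb. The genes from HACD4 to CDKN2B drop to 0 in the resistant groups and, apart from 1 KLHL9 count, in K562, FOCAD lies at 2.23 to 5.06 CPM there, and CAAP1, IFT74, PLAA and MOB3B are present in every group.

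Beyond the flanks, PLAA, IFT74 and MOB3B on the side of CAAP1 were expressed in the resistant and K562 groups. MLLT3, on the side of FOCAD, was low in K562. PLAA, a ubiquitin-binding protein, and IFT74, a part of the intraflagellar transport machinery, lie next to CAAP1 and were also lower, PLAA at 62.9%, 50.1%, 37.2% and 57.8% and IFT74 at 63.9%, 81.9%, 70.9% and 55.3% of control in resistant 1 of batch 1, resistant 1 and 2 of batch 2 and K562. MOB3B, a kinase activator of the MOB family, rose in all 3 comparisons with vehicle, by 3.92 (SE 0.099, adjusted p = 2.4e-23), 3.06 (SE 0.15, adjusted p = 8.2e-11) and 3.55 (SE 0.15, adjusted p = 1.7e-11) on the log2 scale. It was also 3.22 higher in K562 than in parental cells (SE 0.094, adjusted p = 5.0e-18). MLLT3, a subunit of transcription elongation complexes on the side of FOCAD, had 49, 50 and 39 counts in resistant 1 and 3, 7 and 3 in K562 of batch 1, and was 3.26 higher in resistant 1 (SE 0.33, adjusted p = 3.2e-08). Against controls, MLLT3 was lower in K562, at a mean of 0.26 against 5.60 CPM (log2 change -4.52, adjusted p = 2.7e-12). It was also lower in resistant 1 of batch 1 (-1.54, adjusted p = 1.6e-09) and batch 2 (-1.37, adjusted p = 0.00021). In resistant 2 it did not pass the test (0.18, adjusted p = 0.517). TEK, a receptor tyrosine kinase for angiopoietins, had 41, 31 and 26 counts in resistant 1 of batch 1 and 1, 2 and 1 in K562, 4.38 higher in resistant 1 (SE 0.44, adjusted p = 2.5e-08). In batch 2 resistant 2 was above resistant 1 in MLLT3 (1.55, SE 0.26, adjusted p = 0.000663) and below it in TEK (log2 change -2.56, SE 0.37, adjusted p = 0.000239). Over all genes, 59.8% were called between resistant 1 and K562 and 24.4% between resistant 2 and resistant 1. MLLT3 and TEK thus separated libraries that held no counts of the block beyond 1 KLHL9 read in K562.

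MAT2A makes SAM from methionine and ATP. In batch 1 it stood at 418, 399 and 404 CPM in resistant 1 against 368, 362 and 330 in vehicle, and at 565, 533 and 540 in K562 against 444, 424 and 449 in parental libraries. The groups did not overlap, but the changes were small, 0.15 for resistant 1 (SE 0.046, adjusted p = 0.0034) and 0.19 for K562 (SE 0.047, adjusted p = 0.000664) on the log2 scale. The first was lost without vehicle library 3 (0.09, adjusted p = 0.0767). Parental libraries were above resistant 1, and vehicle was below parental by 0.33 (log2 change -0.33, SE 0.046, adjusted p = 2.7e-06).

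In batch 2 MAT2A varied widely between libraries of 1 group. It was at 102, 244 and 168 CPM in resistant 1, 1272, 286 and 916 in resistant 2 and 488, 567 and 603 in vehicle. All 3 resistant 1 libraries were below all vehicle libraries, and resistant 2 had 2 libraries above and 1 below them. The highest library was 2.39 times the lowest in resistant 1 and 4.45 times in resistant 2, against 1.06 in parental cells and 1.12 in vehicle of batch 1. Resistant 1 was lower than vehicle by 1.72 on the log2 scale (log2 change -1.72, SE 0.50, adjusted p = 0.0107), while resistant 2 did not pass the test (0.57, 95% interval -0.38 to 1.51, adjusted p = 0.308) and was called at 0.98 (adjusted p = 0.0121) without its library 2. Resistant 2 was 2.28 above resistant 1 (SE 0.50, adjusted p = 0.0111). Same-numbered libraries of batch 2 tended to deviate together, although no label pairs them. With the replicate number as a block, the adjusted p of MAT2A rose to 0.0853 for resistant 1 against vehicle (log2 change -1.70). For resistant 2 against resistant 1 it rose to 0.0989 (2.23), so both calls were lost. The change in resistant 1 also differed between batches, by -1.89 (SE 0.32, adjusted p = 0.000965). GGCX, a vitamin K-dependent carboxylase gene that overlaps MAT2A on the opposite strand, was at 49.1, 28.7 and 43.4 CPM in resistant 2, in the same order of libraries as MAT2A, and at 28.2 to 32.7 CPM in vehicle and resistant 1 of batch 2. Its part in the MAT2A counts was not tested.

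PRMT5 was higher in every resistant library of batch 1 and in K562. Its levels were 326, 320 and 327 CPM in resistant 1 and 306, 305 and 315 in K562, against 158, 156 and 157 in vehicle and 164, 158 and 172 in parental libraries. This was a rise of 1.00 on the log2 scale over vehicle (SE 0.046, adjusted p = 2.5e-17) and of 0.78 in K562 over parental cells (SE 0.050, adjusted p = 3.6e-12). In batch 2 resistant 1 was at 271, 323 and 293 CPM, resistant 2 at 219, 236 and 184 and vehicle at 181, 180 and 180.01. Resistant 1 was higher than vehicle by 0.69 (SE 0.11, adjusted p = 5.6e-05). Resistant 2 lay above vehicle in all 3 libraries, least so in library 3, without passing the test (0.23, 95% interval 0.01 to 0.45, adjusted p = 0.0796). This interval, taken from the standard error, is narrower than the F test, whose p before adjustment was 0.0628. Without resistant 2 library 3, PRMT5 passed the test (0.32, adjusted p = 0.0196). The difference between resistant 2 and resistant 1 was itself called (log2 change -0.46, SE 0.11, adjusted p = 0.00819). Both batch 2 comparisons with vehicle share the same 3 vehicle libraries. The change of resistant 1 was smaller in batch 2 by 0.33 (log2 difference -0.33, SE 0.098, adjusted p = 0.0157).

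WDR77, the WD repeat cofactor that binds PRMT5 in the methylosome, followed PRMT5 only in part. In batch 1 it was at 104, 106 and 109 CPM in resistant 1 and 158, 169 and 166 in K562, against 59.6, 65.6 and 62.6 in vehicle and 82.01, 86.4 and 90.7 in parental libraries. It was 0.72 above vehicle in resistant 1 (SE 0.056, adjusted p = 3.1e-12), 0.80 above parental in K562 (SE 0.055, adjusted p = 1.4e-11), and lower in vehicle than in parental by 0.48 (log2 change -0.48, SE 0.056, adjusted p = 1.6e-07). In batch 2 it was at 48.4, 59.6 and 45.4 CPM in resistant 1, 89.5, 62.6 and 63.04 in resistant 2 and 56.3, 60.2 and 50.03 in vehicle. Resistant 1 overlapped vehicle and did not pass the test (log2 change -0.14, 95% interval -0.44 to 0.16, adjusted p = 0.408). Resistant 2 was 0.36 higher (SE 0.15, adjusted p = 0.0467), a call lost without vehicle library 1 or 3, resistant 1 library 1 or resistant 2 library 1 (0.16 to 0.38, adjusted p 0.0544 to 0.310). Resistant 2 was 0.50 above resistant 1 (SE 0.15, adjusted p = 0.0288), a call lost without library 1 or 3 of resistant 1 or library 1 of resistant 2 (0.31 to 0.46, adjusted p 0.0989 to 0.165) and in a fit of these 2 groups alone (0.49, adjusted p = 0.0532). The change in resistant 1 differed between batches by -0.88 (SE 0.13, adjusted p = 9.1e-05). All 3 enzymes thus differed between batches, where 33.2% of all genes did.

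Set against all genes, calls of the 3 enzymes were not unusual in these comparisons. All 3 were called higher in resistant 1 of batch 1, where 44.0% of 14505 genes were called higher, 42.1% lower and 86.0% in either direction. In batch 2, PRMT5 was called higher and MAT2A lower in resistant 1, where 39.9% of 15218 genes were called higher, 35.8% lower and 75.7% in all. Only WDR77 was called, higher, in resistant 2, where 40.2% were called higher, 35.9% lower and 76.1% in all. In K562 all 3 were called higher, where 42.6% were called higher and 85.1% in all. Resistant 1 and K562, both without counts of the block apart from 1 KLHL9 read in K562, differed in all 3, with MAT2A lower in resistant 1 (log2 change -0.40, SE 0.040, adjusted p = 3.2e-08), WDR77 lower (-0.60, SE 0.045, adjusted p = 3.0e-10) and PRMT5 higher by 0.10 (SE 0.039, adjusted p = 0.0349). The last call was lost without resistant 1 library 1 or 3 or any 1 K562 library (0.08 to 0.10, adjusted p 0.0737 to 0.141), and with DESeq2 (0.09, adjusted p = 0.0717).

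**Figure D3:**
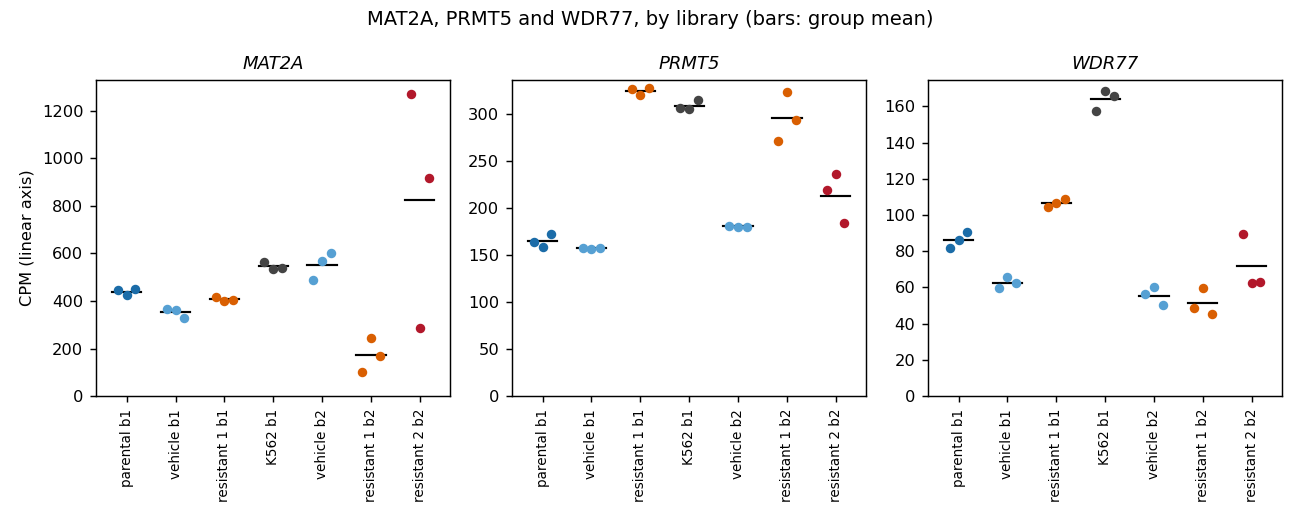
MAT2A, PRMT5 and WDR77 in each library, in CPM on linear axes from 0, by group and sequencing batch (b1, b2); points are libraries and bars are group means. PRMT5 separates resistant 1 and K562 from the controls, and MAT2A spreads from 286 to 1272 CPM within resistant 2.

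In order of mean level over the groups, PRMT5 ran from 157 ± 0.684 CPM (SD, n = 3) in vehicle of batch 1 through parental (165 ± 6.79), vehicle of batch 2 (180 ± 0.464), resistant 2 (213 ± 26.6), resistant 1 of batch 2 (296 ± 25.8) and K562 (309 ± 5.47) to resistant 1 of batch 1 (324 ± 4.02). Parental and vehicle of batch 1 did not differ by the test (log2 change -0.09, adjusted p = 0.141), and resistant 1 of batch 2 was within its spread of K562. MAT2A ran from 171 ± 71.0 CPM in resistant 1 of batch 2 through vehicle (353 ± 20.6), resistant 1 (407 ± 9.44) and parental of batch 1 (439 ± 13.6), K562 (546 ± 17.2) and vehicle of batch 2 (553 ± 58.8) to resistant 2 (825 ± 500). K562, vehicle of batch 2 and resistant 2 did not separate beyond their spread. WDR77 ran from 51.1 ± 7.49 CPM in resistant 1 of batch 2 through vehicle of batch 2 (55.5 ± 5.15), vehicle of batch 1 (62.6 ± 3.00), resistant 2 (71.7 ± 15.4), parental (86.4 ± 4.33) and resistant 1 of batch 1 (107 ± 2.41) to K562 (164 ± 5.59). Neighbours in this order overlapped from resistant 1 of batch 2 up to parental, while resistant 1 of batch 1 and K562 stood apart. Levels set across batches come from tables scaled together here.

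The MTA and methionine cycle genes changed in both directions. Of 27 genes other than MTAP, 23 were tested in resistant 1 of batch 1, and 11 were called higher, 8 lower and 4 neither, with a median log2 change of -0.02 against 0.02 over all genes. In batch 2 the counts were 9 higher and 11 lower of 23 in resistant 1 (median -0.28, all genes 0.07) and 9 and 9 in resistant 2 (median -0.25, all genes 0.07), and in K562 10 and 8 (median 0.01, all genes 0.00055). Over all genes 86.0%, 75.7%, 76.1% and 85.1% were called in these 4 comparisons. The list includes MAT2A. These comparisons share controls in batch 2, and the lists were chosen with earlier results known.

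Along the salvage route that MTAP opens, the next enzymes moved apart. MRI1, the isomerase after MTAP, was higher by 0.43 (SE 0.070, adjusted p = 3.5e-06) in resistant 1 of batch 1, by 0.51 (SE 0.13, adjusted p = 0.0021) and 0.90 (SE 0.13, adjusted p = 1.5e-05) in resistant 1 and 2 of batch 2, and by 0.28 (SE 0.063, adjusted p = 0.00033) in K562. APIP, the dehydratase that follows, was higher by 1.80, 1.44, 1.76 and 1.31 in the same order, with adjusted p of 1.7e-20, 9.0e-08, 1.0e-08 and 5.9e-14. ADI1, the dioxygenase late in the route, was lower in all 4, with log2 changes of -1.76, -1.18, -1.34 and -1.41 and adjusted p of 3.6e-21, 2.4e-06, 6.0e-07 and 6.2e-16. ENOPH1, which acts between APIP and ADI1, was lower in batch 2 (log2 changes -0.63 and -0.82, adjusted p = 0.00017 and 1.3e-05) and did not pass the test in resistant 1 of batch 1 (-0.10, adjusted p = 0.133), although it was called without vehicle library 3 (-0.15, adjusted p = 0.0472). In K562 it was higher by 0.18 (adjusted p = 0.0087), a call lost without K562 library 2 (0.14, adjusted p = 0.0693). GOT1, an aspartate aminotransferase that can close the route, rose by 4.52, 3.41 and 3.49 in the resistant groups and by 6.24 in K562, with adjusted p of 1.1e-26, 4.8e-11, 3.9e-11 and 2.1e-21. GOT1 was itself low in parental cells, at a mean of 1.02 CPM, and was 2.03 higher in vehicle (SE 0.18, adjusted p = 6.0e-10). Against the controls of their own batch, the libraries without MTAP counts thus had higher MRI1, APIP and GOT1 and lower ADI1 messenger RNA.

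In the methionine cycle itself, MTRR, which reactivates methionine synthase, fell in the resistant groups and in K562, with log2 changes of -1.17, -2.05, -1.85 and -0.77 (adjusted p = 2.3e-15, 5.2e-09, 1.5e-08 and 1.0e-10). NNMT, a methyltransferase that spends SAM on nicotinamide, had 0 counts in parental and vehicle of batch 1 and 1 count in vehicle of batch 2. It stood at 7.93 to 8.35 CPM in resistant 1 of batch 1, 4.12 to 5.33 in K562, 16.9 to 20.7 in batch 2 of resistant 1, with 92.4 to 122 in resistant 2. Resistant 2 was 2.59 above resistant 1 (SE 0.15, adjusted p = 9.1e-08), so NNMT differed widely among libraries that all lacked MTAP counts.

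Polyamine genes, whose synthesis releases MTA, were also called in both directions, with 8 higher and 9 lower of 18 tested in resistant 1 of batch 1 (median -0.28), 6 and 9 in resistant 1 of batch 2 (median -0.38), 6 and 8 in resistant 2 (median -0.21) and 8 and 8 of 17 in K562 (median 0.33), against 86.0%, 75.7%, 76.1% and 85.1% of all genes called and medians of 0.02, 0.07, 0.07 and 0.00055 over all genes. ODC1, the rate-limiting decarboxylase, rose by 1.51, 1.26, 1.58 and 2.13 (adjusted p = 5.1e-21, 4.2e-06, 4.1e-07 and 9.6e-20). SRM, spermidine synthase, was lower in the resistant groups, with log2 changes of -0.41, -1.23 and -1.07 (adjusted p = 4.3e-08, 7.2e-07 and 3.0e-06), and higher in K562 by 0.33 (adjusted p = 4.9e-06). SAT1, the acetyltransferase that starts polyamine breakdown, rose by 2.58, 4.61, 4.41 and 2.26 (adjusted p = 1.8e-20, 6.8e-09, 9.8e-09 and 3.2e-14). ODC1 and SAT1, at opposite ends of the pathway, were thus higher together in all 4 comparisons.

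Of 12 tested genes of the PRMT5 complex and the arginine methyltransferases, PRMT5 and WDR77 included, 7 were called higher and 2 lower in resistant 1 of batch 1 (median 0.36), 4 and 2 in resistant 1 of batch 2 (median -0.00048), 2 and 3 in resistant 2 (median 0.03), and 9 and 3 in K562 (median 0.43), against 86.0%, 75.7%, 76.1% and 85.1% of all genes called. PRMT1, the main asymmetric arginine methyltransferase, was lower in all 4, with log2 changes of -0.85, -1.06, -1.01 and -0.43 (adjusted p = 1.5e-15, 6.3e-07, 1.1e-06 and 2.9e-08). PRMT3, a ribosome-linked member, was higher in batch 1 by 0.63 in resistant 1 (adjusted p = 3.3e-10) and by 0.91 in K562 (adjusted p = 6.0e-11) and by 0.35 in resistant 1 of batch 2 (adjusted p = 0.00786), and did not pass in resistant 2 (0.20, adjusted p = 0.0995). RIOK1, an adaptor that competes for PRMT5, was higher by 0.64 in resistant 1 of batch 1 (adjusted p = 8.7e-11), 0.38 in resistant 2 (adjusted p = 0.00749) and 0.48 in K562 (adjusted p = 3.2e-07), against 0.04 in resistant 1 of batch 2 (adjusted p = 0.733). COPRS, which directs PRMT5 to chromatin, was higher by 0.50 in resistant 1 of batch 1 (adjusted p = 1.6e-05) and 0.37 in K562 (adjusted p = 0.00045) and did not pass in batch 2 (0.20 and -0.10, adjusted p = 0.206 and 0.531).

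PRMT5 methylates several Sm and Sm-like proteins before the spliceosome is built. A list of genes for these proteins and for the SMN complex that assembles them gave 10 higher and 4 lower calls of 18 tested genes in resistant 1 of batch 1 (median 0.22), 7 and 8 in resistant 1 of batch 2 (median -0.08), 6 and 7 in resistant 2 (median -0.22) and 13 and 4 in K562 (median 0.30), against 86.0%, 75.7%, 76.1% and 85.1% of all genes called. The methylated members did not move in 1 direction. SNRPB and SNRPD3 were lower in all 4. SNRPB changed by -0.55, -0.66, -0.89 and -0.52 (adjusted p = 6.0e-11, 7.8e-05, 4.0e-06 and 2.3e-09) and SNRPD3 by -0.58, -1.10, -1.21 and -0.57 (adjusted p = 4.1e-12, 4.0e-06, 1.4e-06 and 1.5e-09) on the log2 scale. SNRPD1 was lower in resistant 2 (log2 change -1.02, adjusted p = 6.1e-05), higher in K562 by 0.31 (adjusted p = 1.6e-05) and not called in resistant 1 of batch 1 (-0.04, adjusted p = 0.491). In resistant 1 of batch 2 it was lower (-0.43, adjusted p = 0.0276), a call lost without vehicle library 2 or library 1 or 3 of resistant 1 (-0.37 to -0.34, adjusted p 0.0994 to 0.113). LSM4, a Sm-like gene named here after its values were seen, was higher by 0.54, 0.56, 0.43 and 0.33 (adjusted p = 1.0e-09, 0.00012, 0.0012 and 2.6e-05).

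**Figure D4:**
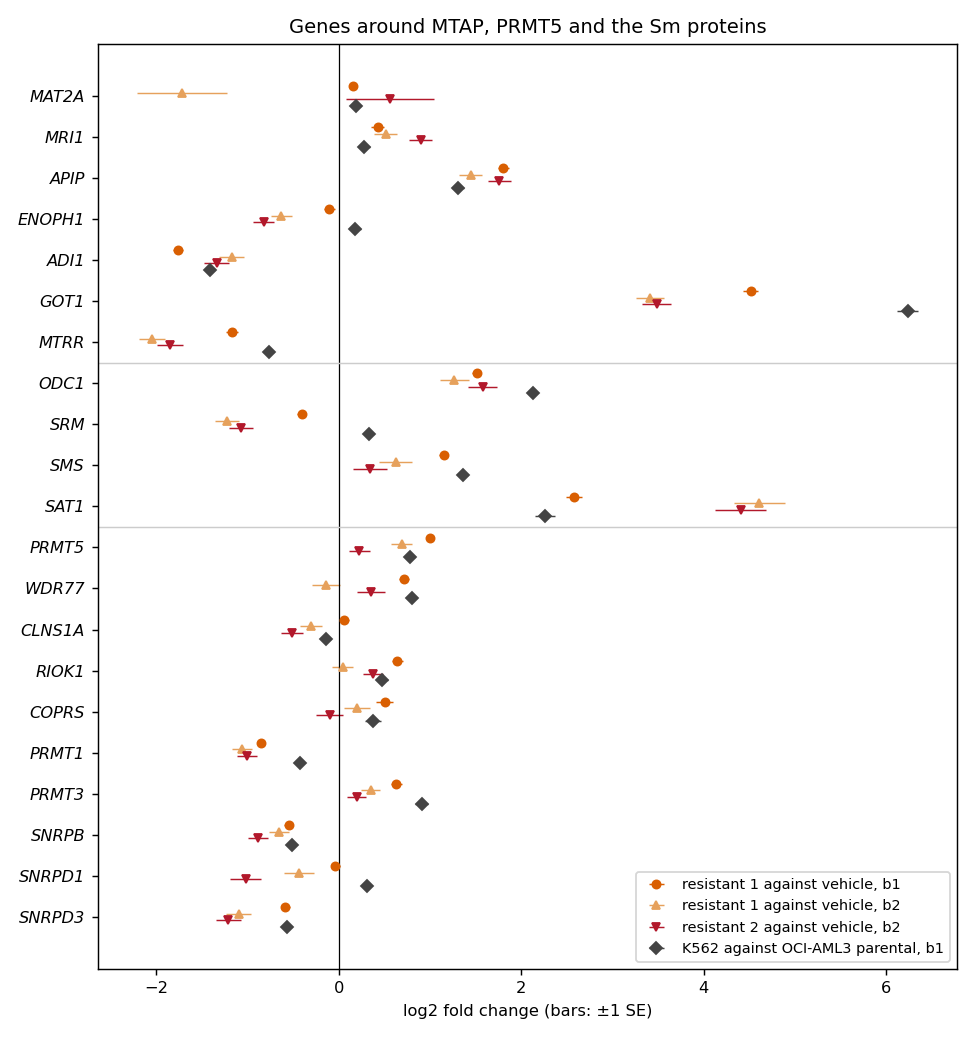
Log2 fold change with bars of ±1 standard error for named genes of the methionine and MTA route (top), polyamine metabolism (middle) and the PRMT5 and Sm group (bottom), in resistant 1 of batch 1 and resistant 1 and 2 of batch 2 against vehicle and in K562 against parental cells. GOT1, SAT1, ODC1 and APIP lie right of 0 and ADI1, MTRR, PRMT1, SNRPB and SNRPD3 left of 0 in all 4 comparisons, while MAT2A lies on both sides.

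The INK4 products of CDKN2A and CDKN2B act on CDK4 and CDK6, and the other genes of the cell cycle list were read beside them. Of 27 tested, 8 were called higher and 15 lower in resistant 1 of batch 1 (median -0.23), 7 and 13 in resistant 1 of batch 2 (median -0.28), 8 and 11 in resistant 2 (median -0.15), and 9 and 16 in K562 (median -0.34), against 86.0%, 75.7%, 76.1% and 85.1% of all genes called. CCND2, a D-type cyclin partner of CDK4 and CDK6, was at 134, 139, 111 and 160 CPM in resistant 1 of batch 1, K562, resistant 1 of batch 2 and resistant 2, and at 0.12 to 0.31 CPM in the controls. CCND1, another D-type cyclin, was at a mean of 53.8 to 81.9 CPM in the controls. It stood at 59.7, 25.8, 35.7 and 114 CPM in resistant 1 of batch 1, K562, resistant 1 of batch 2 and resistant 2. CCND1 was lower in K562 (log2 change -1.78, adjusted p = 3.9e-16) and resistant 1 of batch 2 (-1.12, adjusted p = 3.9e-06). It was higher in resistant 2 (0.56, adjusted p = 0.0019) and not called in resistant 1 of batch 1 (0.10, adjusted p = 0.0902). CDK6 was lower, with log2 changes of -1.35, -1.44, -1.53 and -0.80 (adjusted p = 9.0e-10, 2.0e-07, 1.0e-07 and 1.7e-06).

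The CDK inhibitors named here outside the block were expressed in the resistant and K562 groups, and their changes differed. CDKN1B, of the CIP/KIP family, was lower in resistant 1 of batch 1, resistant 1 and 2 of batch 2 and K562. Its log2 changes were -0.72, -0.58, -0.60 and -1.23 (adjusted p = 3.5e-12, 0.00089, 0.00066 and 1.2e-13), and it remained at 39.8 to 80.0 CPM. CDKN2C, an INK4 family member on another chromosome, was lower in the resistant groups (log2 changes -0.87, -0.93 and -1.72, adjusted p = 1.2e-13, 2.4e-05 and 4.1e-08) and higher in K562 (0.30, adjusted p = 0.00017), but remained at 36.4 to 64.6 CPM. CDKN1C, of the CIP/KIP family, rose from 0.08 to 0.39 CPM in the controls to 4.10 to 10.2 CPM in the resistant and K562 groups. CDKN1A, which encodes p21, a CIP/KIP inhibitor, was lower by 1.99 in resistant 1 of batch 1 (log2 change -1.99, adjusted p = 1.5e-18) and by 3.14 in K562 (-3.14, adjusted p = 1.0e-18), and higher by 2.02 in resistant 2 (adjusted p = 6.5e-07). In resistant 1 of batch 2 it did not pass the test (0.32, adjusted p = 0.176), but it was called without vehicle library 1 (0.55, adjusted p = 0.0297) and with the replicate block (0.33, adjusted p = 0.0247). Resistant 2 was 1.71 above resistant 1 in CDKN1A (SE 0.21, adjusted p = 6.0e-05). E2F2, a transcription factor held by RB, rose by 2.52, 2.49, 2.16 and 2.00 (adjusted p = 1.1e-20, 1.5e-08, 6.6e-08 and 5.4e-16).

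Partners of HACD4 and KLHL9 were present in the resistant and K562 libraries. HACD3, another member of the HACD family, was higher by 0.65 in resistant 1 of batch 1 (adjusted p = 3.5e-12), 0.48 in resistant 1 of batch 2 (adjusted p = 0.0015) and 0.44 in K562 (adjusted p = 1.5e-07), and did not pass in resistant 2 (0.03, 95% interval -0.20 to 0.25). HACD2, a further member, was lower, with log2 changes of -2.09, -2.65, -2.51 and -2.19 (adjusted p = 1.2e-19, 2.9e-10, 4.7e-10 and 4.4e-16). ELOVL6, an elongase of the same pathway, had 3 counts in parental and 0 in both vehicle groups, and stood at 76.3 to 119 CPM in the resistant and K562 libraries. KLHL13, which works with KLHL9 in the same CUL3 ligase, was higher by 3.93, 1.65 and 2.85 in the resistant groups (adjusted p = 1.9e-14, 1.0e-06 and 2.6e-09) and stood at a mean of 3.98 CPM in K562 against 0 in parental cells. CUL3 was lower, with log2 changes of -0.28, -0.81, -0.66 and -0.40 (adjusted p = 5.4e-05, 0.00042, 0.0019 and 9.2e-07). Of 11 tested genes of the elongation list, HACD2, HACD3 and ELOVL6 included, 6 were called higher and 4 lower in resistant 1 of batch 1, 5 and 4 in resistant 1 of batch 2, 3 and 5 in resistant 2 and 5 and 6 in K562. Of 8 KLHL9 partners 4 and 4, 4 and 3, 3 and 3, and 3 and 4 were called in the same order, against 86.0%, 75.7%, 76.1% and 85.1% of all genes called. The receptors of the type I interferons were expressed although the interferon genes were not. IFNAR2 was lower, with log2 changes of -1.22, -1.13, -1.26 and -1.85 (adjusted p = 1.2e-16, 9.2e-07, 3.1e-07 and 5.0e-16). IFNAR1 was higher in resistant 1 of batch 1 by 0.34 (adjusted p = 7.0e-06) and in K562 by 0.26 (adjusted p = 0.0011), and was not called in resistant 1 of batch 2 (0.13, adjusted p = 0.214). In resistant 2 it was higher by 0.29 (adjusted p = 0.0127), a call lost without library 1 of that group (0.24, adjusted p = 0.0570).

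Genes whose level over the 21 libraries was most like that of MTAP and PRMT5 were sought among 10767 genes by Pearson correlation of log2(CPM + 1). The 5 most like MTAP were CCR1, P2RY2, PTGR1, PTPRE and MKX, with r of 0.9998 for CCR1 and P2RY2 and 0.9996 for the other 3. The 5 most like PRMT5 were ATP5G3, MPC2, SNCG, CRYZ and GYPB, with r from 0.970 to 0.964. The libraries fall into 2 clusters, OCI-AML3 controls on 1 side and resistant and K562 libraries on the other, so these r describe the contrast between the clusters. CCR1, the chemokine receptor nearest to MTAP in this measure, is a gene of another chromosome.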

How the data were processed

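Messenger RNA of 21 libraries was measured by strand-specific RNA sequencing. The authors deposited 1 table of raw counts per batch, with 28008 genes each. The submitters' processing notes name hg38, the VIPER pipeline and DESeq2 1.22.1. The sources used here do not give the aligner version, annotation or strand setting. All counts were checked to be whole, no column was without a sample, and no libraries were identical.

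Counts were fitted with edgeR 4.0.16 in R 4.3.3 (TMM scaling, filterByExpr, robust quasi-likelihood F tests, two-sided, Benjamini-Hochberg adjustment over all genes tested, calls at adjusted p under 0.05). 1 fit held the OCI-AML3 groups of batch 1 and another the groups of batch 2. K562 was fitted with parental, and with resistant 1 of batch 1. The difference between batches came from vehicle and resistant 1 of both. Standard errors are the log2 change over the square root of F. CPM in the text used TMM over all 21 libraries. The code was tested on simulated data. Positions are from GENCODE v44, matched by symbol for 25348 genes. Alternatives were DESeq2 1.42.0, RLE scaling, no filter, 2 groups only, a replicate block, plain CPM and leaving out each library.

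The members and lists were chosen with earlier results of these data known. Named genes are the members, the genes from MLLT3 to MOB3B with 10 or more counts, up to 4 called genes per list and direction in a comparison with at least 5 CPM, and the 5 most like MTAP and PRMT5. Some genes that this rule names are not reported here. Same-numbered libraries tended to deviate together in batch 2. Their correlations were 0.212, 0.266 and 0.217 in resistant 1 against vehicle and 0.0849, 0.211 and 0.156 in resistant 2 against vehicle. Between resistant 2 and resistant 1 they were 0.293, 0.391 and 0.158, where library 3 of resistant 2 matched library 1 of resistant 1 best. In the batch 1 comparisons they ranged from -0.325 to 0.31. No label states a pairing, so the main fits used no replicate block.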

Additional observations from a re-analysis of the deposited data

Results flagged for a closer look

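The change of resistant 1 against vehicle was measured in both sequencing batches, and a test of the difference between the batches was called for 33.2% of 15209 genes. Values here are the log2 change in batch 2 minus that in batch 1, with edgeR adjusted p under 0.05. Batch 2 also holds other libraries of these groups at greater depth, so the run, the depth and the samples cannot be told apart.

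The values below are those of genes taken by the rule for named genes, and the lists hold further called genes. Among the enzymes tied to MTAP, all 3 were called: MAT2A (-1.89), PRMT5 (-0.33) and WDR77 (-0.88). MAT2A changed sign between batches, from 0.15 to -1.72, and PRMT5 was higher in both, at 1.00 and 0.69. In the MTA and methionine list, with 6 genes called higher and 7 lower of 23, the named ones were APIP (-0.38), ENOPH1 (-0.55), ADI1 (0.56), GOT1 (-1.13) and MTRR (-0.90), and in the polyamine list, with 5 higher and 4 lower of 18, SRM (-0.84), SMS (-0.54) and SAT1 (2.00). APIP, GOT1 and SAT1 were higher in both batches, and ADI1, MTRR and SRM lower in both.

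The arginine methyltransferase list had 0 higher and 6 lower of 12 and the Sm and SMN list 1 higher and 7 lower of 18, where the named ones beside PRMT5 and WDR77 were CLNS1A (-0.38), RIOK1 (-0.62), PRMT3 (-0.30), SNRPD1 (-0.42) and SNRPD3 (-0.53). The cell cycle list had 7 higher and 5 lower of 27, of which the named ones were CDKN1A (2.29) and TFDP1 (-0.65), where CDKN1A went from -1.99 to an uncalled 0.32. The elongation list had 0 higher and 3 lower of 11 and the KLHL9 partners 1 higher and 2 lower of 8, with the named ones being HACD2 (-0.57), CUL3 (-0.54) and KLHL13 (-2.29), and among the named 9p neighbours PLAA (-0.33), IFT74 (0.36) and MOB3B (-0.88). KLHL13 and MOB3B were higher, and HACD2 and PLAA lower, in both batches.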

How the results depend on the processing

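The 5 block genes gave no count in the resistant libraries, so no scaling or filter could change that. The mean summed level of the block moved from 198 to 214 CPM in vehicle of batch 1 and from 326 to 271 CPM in vehicle of batch 2 with plain CPM. The higher PRMT5 in resistant 1 of both batches and in K562 kept its call under every alternative run. With the replicate block the call of MAT2A was lost in resistant 1 against vehicle of batch 2 (-1.70) and in resistant 2 against resistant 1 (2.23). The call of PRMT5 between resistant 1 and K562 was lost with DESeq2 (0.0861), RLE scaling (0.0862), no filter (0.0854) and the replicate block (0.0983), and that of WDR77 between resistant 2 and resistant 1 with only those 2 groups (0.486). The block changed no other call of the 3 enzymes and no count of called genes by over 1.5 times, and the cause of these losses was not tested.

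Leaving out 1 library at a time, the log2 change of MAT2A ran from 0.0936 to 0.169 in resistant 1 of batch 1 and from 0.109 to 0.978 in resistant 2, PRMT5 from 0.154 to 0.322 in resistant 2 and from 0.0772 to 0.102 against K562, and WDR77 from 0.163 to 0.451 in resistant 2 and from 0.305 to 0.621 against resistant 1. Genes called between resistant 2 and resistant 1 ran from 2323 to 4814 around 3706. Signs turned, always without a call, for HACD3 (-0.0775 to 0.0930) and MLLT3 (-0.0337 to 0.420) in resistant 2 against vehicle, KLHL9 (-0.0740 to 0.0168) and CDKN2B (-0.219 to 0.0970) in vehicle against parental, CDK4 (-0.00869 to 0.0465) in K562, CAAP1 (-0.121 to 0.0503) in resistant 1 against K562 and FOCAD (-0.191 to 0.0689) in resistant 2 against resistant 1. Depth limits CDKN2A and CDKN2B, with 17 to 132 counts per control library, and the silent 9p genes, which could not show a change.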
